A study of Mus musculus with 6 samples.

Results

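A set of 142 genes had their lowest level at day 6 (D6) while mouse embryonic stem (ES) cells were moved from serum to 2i+vitC medium, with higher levels both before the change, at D0, and at D13. The members were chosen by their own values: on log2 CPM (read counts scaled to a common library size), the lowest of the 4 values at D0 and D13 had to exceed the highest of the 2 values at D6 by a margin of at least 0.7, both D0 values had to be above 0, and the gene name had to be unique. Of the 12626 gene rows, 12522 had a unique name, 11709 of these also had both D0 values above 0, and 142 met the rule, which is 1.21% of the 11709. The opposite course, with both D6 values above the 4 others by the same margin, was met by 79 of the same 11709 genes, or 0.675%. Both D0 values had to be above 0 here too, which leaves out genes low in serum. Nothing is read from the difference between the 2 counts. Since the rule used the D0, D6 and D13 values, the difference of the members between D6 and the other days is described here without a test, and tests on members are given for D13 against D0 only. The rule fixed no direction for that difference, but it used the values of both days and bounded how low they could be, so these tests are not independent of the choice of members.

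All samples were WT J1 mouse ES cells, a line from early embryos that keeps the capacity to form every tissue of the body, grown without feeder cells on gelatin and with leukemia inhibitory factor (LIF) throughout. At D0 the cells were in serum medium. At D6 and D13 they were in 2i+vitC, a serum-free medium with an inhibitor of GSK3, an inhibitor of MEK (PD0325901) and vitamin C. Each of the 3 days had 2 replicates, numbered 1 and 2. The change of medium also exchanged the basal medium, the supplements and the enzyme used for passage, so these cannot be told apart from the inhibitors or from vitamin C in any comparison with D0, whereas D6 and D13 share a medium and differ in time. Polyadenylated RNA was sequenced as stranded paired-end libraries with 73230745 to 83688345 reads on genes per sample, at which 3 reads correspond to 0.0344 to 0.042 CPM. The 7 ES cell markers listed for the check were all measured, with a summed level of 2558 to 3829 CPM in the 6 samples. Single markers did change by more than 4-fold against D0 at a limma adjusted p under 0.05. Nanog was higher at D6, and Utf1 was lower at D6 and at D13. One library stood apart at D13: replicate 1 had a summed level of 41868 CPM over 19 cytosolic ribosomal protein genes, against 20691 to 24663 CPM in the 5 other samples.

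In ES cells, serum and autocrine growth factors drive the kinase cascade from RAF through MEK to ERK, which induces immediate-early genes such as Fos, Jun and Egr1 within minutes of stimulation, and later genes whose products dampen the cascade again, among them the Sprouty proteins and the dual-specificity phosphatases (DUSPs). The inhibitor of MEK in 2i blocks this cascade, and the inhibitor of GSK3 mimics Wnt signalling by stabilising beta-catenin. Cells in serum are a mixture, in which some express genes of later lineages, while cells in 2i resemble more uniformly the early epiblast of the embryo. Vitamin C is a cofactor of the TET enzymes, which oxidise methylated cytosine, and the medium lowers DNA methylation across the genome.

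Most members were far lower at D6 than at D0 and had regained a part of the difference by D13. In the median member, the mean at D6 was 2.14 below that at D0 on the log2 scale (range over members 0.91 to 6.52), and the mean at D13 was 1.37 above that at D6 (0.82 to 5.24). By these means, 77 members were at least 4-fold lower at D6 than at D0, and 23 were at least 4-fold higher at D13 than at D6. The margin itself had a median of 0.94 and reached 3.23, with 59 members at 1 or more and 5 at 2 or more. Just inside the limit lay Sh2d3c with 0.7006 and Capn2 with 0.7027, and just outside lay Thnsl1 with 0.6944 and Crb2 with 0.6853. In bulk RNA, fewer cells that express a gene and less RNA of it per cell cannot be told apart.

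**Figure D1:**
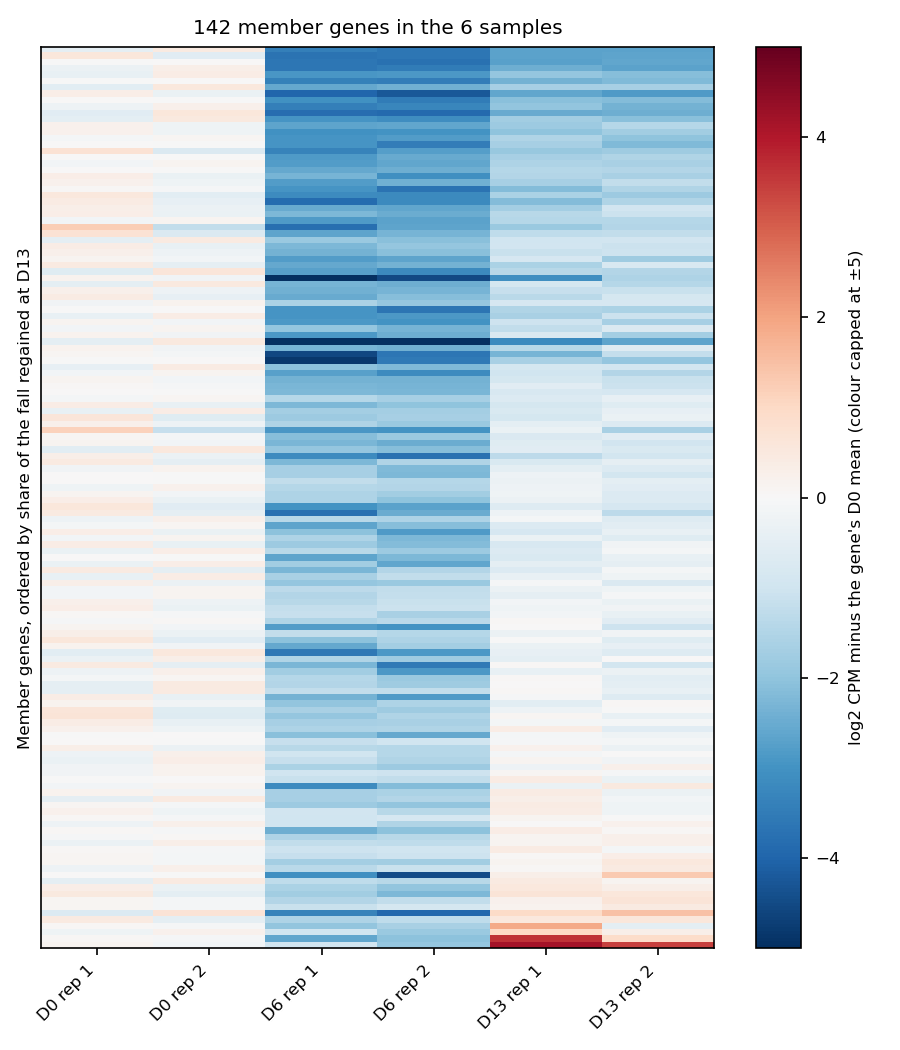
Log2 CPM of the 142 members (rows) in the 6 samples (columns), as the difference from each gene's mean at D0, with rows ordered by the share of the fall regained at D13, lowest at the top. Both D6 columns are blue in every row, as the rule requires, while the D13 columns run from blue at the top, where 23.3% of the fall was regained, through white to red at the bottom, where 2 genes stood well above D0.

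Depth allowed these values to be read in each sample. The lowest D6 count of a member was 7 reads, for Irf8 in replicate 1, and the lowest D0 count of any member was 89 reads. The median of the lower D6 count over the members was 112 reads. Replicates of a day were somewhat farther apart for members than for all 11709 genes at D0, with a median SD of 0.34 against 0.23 log2 CPM, and at D6, with 0.17 against 0.10, but not at D13, with 0.24 against 0.26 (SD, n = 2 in each gene). At D0, replicate 1 was the higher one for 84 members, and at D6 and D13 for 75 and 76.

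The members with the largest margin were Dusp4, Dll1, Bhlhe41, Prss50, Maff, Hspa1a, Ltbp3, P2ry2, Fut4 and 2810459M11Rik, in that order. Dusp4, a nuclear phosphatase that removes the activating phosphates from ERK, stood at a log2 CPM of 5.30 and 6.28 in replicates 1 and 2 at D0, -0.61 and -0.84 at D6, then 2.62 and 3.15 at D13. These values correspond to 3102 and 6788 reads, 51 and 47 reads, and 439 and 665 reads. Both D13 samples thus lay well above D6 and well below D0.

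Bhlhe41 encodes a basic helix-loop-helix repressor that takes part in the circadian clock. It had 0.25 and 1.58 log2 CPM at D0, -2.44 and -3.02 at D6, then 1.86 and 2.37 at D13, so that both D13 samples were above both D0 samples. P2ry2, a receptor for extracellular nucleotides, had 1.01 and 1.28 log2 CPM at D0, -2.02 and -1.04 at D6, then 0.82 and 1.63 at D13. Its D0 and D13 samples overlapped, as did those of Prss50, a testis protease, which had 1.38 and 2.42 at D0, -1.69 and -0.97 at D6, then 1.49 and 1.25 at D13. Ltbp3, which binds latent TGF-beta in the matrix, had 1.42 and 1.49 at D0, -0.64 and -1.11 at D6, then 1.38 and 1.23 at D13, with both D13 samples just under D0. Fut4, a fucosyltransferase that can make the stage-specific antigen SSEA-1, had 1.27 and 0.68 log2 CPM at D0, -2.17 and -2.77 at D6, then -0.31 and 0.06 at D13. The uncharacterised 2810459M11Rik had 1.32 and 0.16 at D0, -2.26 and -1.92 at D6, then 0.10 and -0.11 at D13. For these last 2 genes both D13 samples lay between the D6 and the D0 samples.

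**Figure D2:**
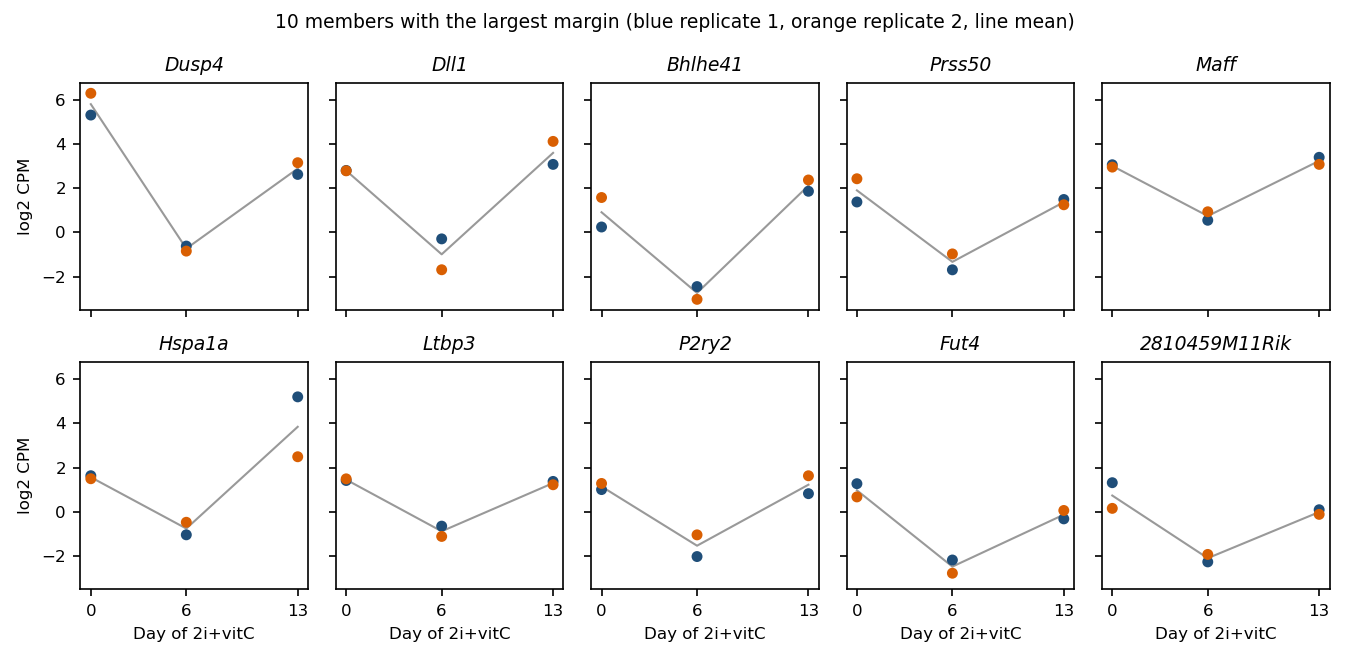
Log2 CPM (y axis) against day of 2i+vitC (x axis) for the 10 members with the largest margin, with replicate 1 in blue, replicate 2 in orange and a line through the means. Dusp4 returned only part of the way by D13, whereas Dll1, Bhlhe41, Maff and Hspa1a were above their D0 values in both D13 replicates.

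The comparison of D13 with D0 asks whether the members had returned to their level in serum. Most ended below it. The mean at D13 was under the mean at D0 for 113 members and above it for 29, and the median log2 change from D0 to D13 was -0.58 over the members, against -0.09 over the 11709 genes that could meet the rule. In a limma fit of all 6 samples with Benjamini-Hochberg adjustment over 12928 genes and transposon families, 42 members were lower at D13 with an adjusted p under 0.05 and 2 were higher. These are 29.6% and 1.41% of the members, and among the 11709 genes 23.4% were lower and 17.4% higher by this criterion. As the rule used the D0 and D13 values, nothing is read from the difference between these shares. With a change of more than 4-fold required as well, as in the methods of the study, 12 members (8.45%) were lower, where the background was 6.4%, and 2 (1.41%) were higher, where it was 3.76%. Both D13 samples lay below both D0 samples for 80 members and above them for 12, against 38% and 30.5% of the 11709 genes, and the values of the 2 days overlapped for 50 members. Of the 44 members with an adjusted p under 0.05, 26 kept it in each of the 6 fits that left out a sample, and of the 14 past 4-fold, 12 did, the exceptions being Hspa1a and Irf8.

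**Figure D3:**
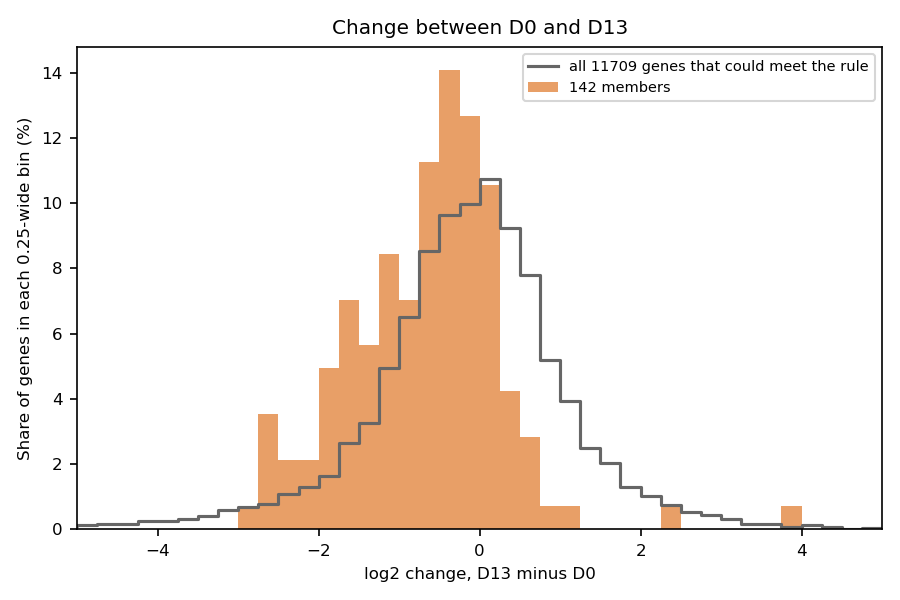
Share of genes (y axis, %) in bins of the log2 change from D0 to D13 (x axis), for the 142 members (bars) and all 11709 genes with a unique name and both D0 values above 0 (line). The members lie mostly left of 0, with a median of -0.58, and few lie to the right, where Hspa1a and Gadd45g stand at 2.28 and 3.79.

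Expressed as the share of the fall that was regained, which is the rise from D6 to D13 divided by the fall from D0 to D6 on the log2 scale, the median member regained 72.5%. For 30 members the share was under 50%, for 83 it was from 50% to 100%, and for 29 it was 100% or more. The lowest share was 23.3%, for Gm5796, and the highest 362%, for Gadd45g.

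**Figure D4:**
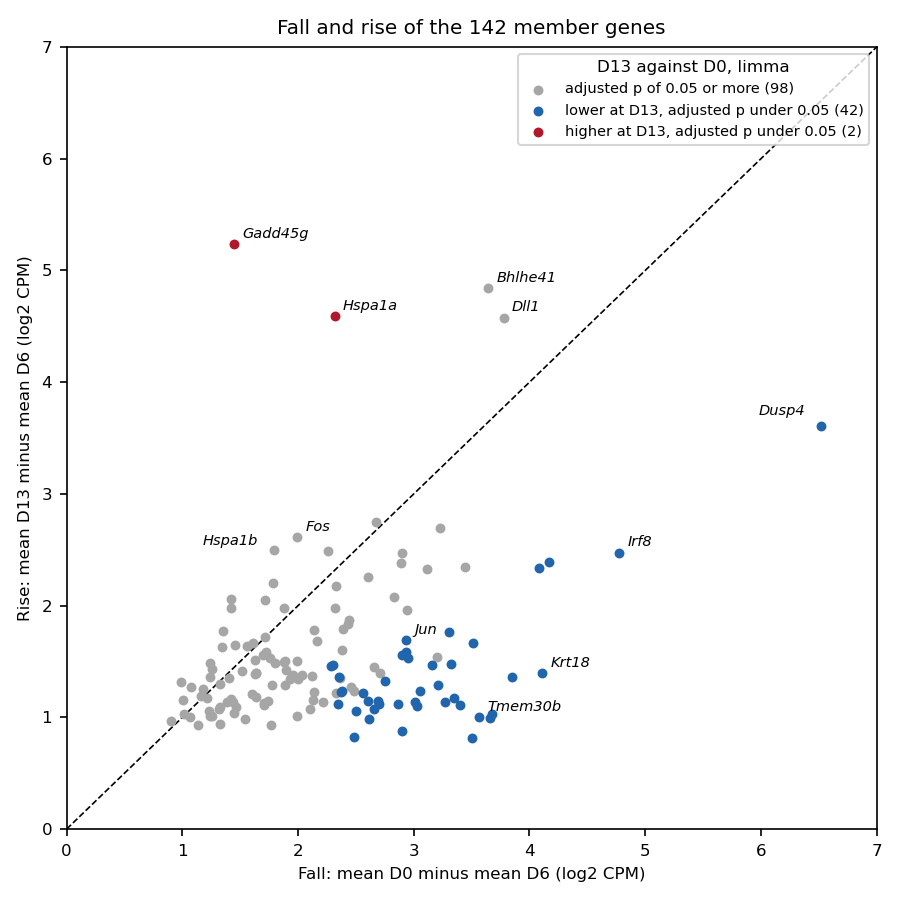
Rise from D6 to D13 (y axis) against fall from D0 to D6 (x axis) for the 142 members, both as differences of mean log2 CPM, with equality on the dashed line and colours for the limma result of D13 against D0. The 42 blue genes, lower at D13, lie below the line with larger falls, Dusp4 farthest to the right, and the 2 red genes, Hspa1a and Gadd45g, lie far above it.

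Among the transcription factors and inhibitors of the ERK pathway, the members differed in the share of the fall regained by D13. The list of ERK feedback and immediate-early genes holds 30 genes, of which 25 were measured and 5 were members: Dusp4, Spry1, Jun, Fos and Maff. Dusp4 was lower at D13 than at D0 by a log2 change of -2.91 (standard error, SE, 0.39, limma adjusted p = 0.000647), the largest drop between the end-points among the members. Spry1, a Sprouty protein that restrains receptor tyrosine kinase signalling, had 4.71 and 4.95 log2 CPM at D0, 2.03 and 2.22 at D6, then 3.27 and 3.22 at D13, with little spread on any day. It remained lower at D13 by -1.58 (SE 0.27, limma adjusted p = 0.00195), having regained 41.3% of its fall.

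Fos and Jun encode the partners of the AP-1 dimer. Jun had 4.34 and 4.64 log2 CPM at D0, 1.76 and 1.36 at D6, then 3.48 and 3.02 at D13, so that each D13 sample lay between the D6 and D0 samples. Its change from D0 to D13 was -1.24 (SE 0.31, limma adjusted p = 0.0129), a call that was lost without D0 replicate 2 (limma adjusted p = 0.0539) and without D13 replicate 2 (limma adjusted p = 0.0503). Fos had 3.08 and 2.10 log2 CPM at D0, 0.85 and 0.34 at D6, then 3.24 and 3.17 at D13. Both D13 samples of Fos were above both D0 samples, but the change of 0.62 (SE 0.41, limma adjusted p = 0.247) fell short of the threshold. Maff, a small MAF protein that pairs with other leucine zipper factors, showed 3.06 and 2.95 at D0, 0.55 and 0.93 at D6, then 3.39 and 3.07 at D13. Its D13 samples were just above D0, with a change of 0.23 (SE 0.32, limma adjusted p = 0.594).

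Dusp9, another ERK phosphatase and a known BMP target in ES cells, is a member that was not on the list. It had 7.004 and 5.73 log2 CPM at D0, 4.44 and 4.85 at D6, then 6.45 and 6.002 at D13. The D13 samples fell between the 2 D0 samples, which were more than a log2 unit apart.

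A gene of the list with a trough past the margin is a member by the rule, so the split of the list fixes much of how its other genes behave, and the 20 others are given as a description. Against D0, 7 of them were lower at D6 and 0 higher by more than 4-fold with an adjusted p under 0.05 in limma, where 3.9% and 5.91% of all 12626 genes were called. By adjusted p alone 13 of the 20 were lower, and at an unadjusted p under 0.05 14 were lower and 0 higher. From D6 to D13, 0 of the 20 were called higher and 1, Myc, was called lower, against 0.388% and 0.697% of all genes, while an unadjusted p under 0.05 was reached upward by 2 genes and downward by 6. With precision weights or without a mean-variance trend, 0 of the 20 were called in either direction in this step. By adjusted p alone, Ier5 was higher at D13 than at D6 by 1.94 (SE 0.36, limma adjusted p = 0.029), from 1.91 and 1.70 log2 CPM to 3.87 and 3.62. From D0 to D13, 12 of the 20 were called lower and 0 higher, against 6.01% and 7.45% of all genes, and 16 were lower and 1 higher at an unadjusted p under 0.05. The median log2 change of the 20 genes was -1.56 in the first step and -0.35 in the second.

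Egr1, an immediate-early zinc finger factor, went from 6.24 and 7.08 log2 CPM at D0 to 0.10 and -1.22 at D6 and was at -0.45 and -1.16 at D13. Spry4 had 7.64 and 6.84 at D0, -1.11 and 1.12 at D6, then -0.62 and -0.11 at D13. Dusp6, a cytoplasmic phosphatase for ERK, had 6.76 and 6.25 at D0, 0.35 and 1.27 at D6, then 1.63 and 2.00 at D13. These 3 genes, known ERK targets like Dusp4, thus stayed at least 4 log2 units below D0 in both D13 samples. The contrast between Dusp4 and Dusp6, or between Spry1 and Spry4, rests on the choice of Dusp4 and Spry1 by the rule and was not tested.

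**Figure D5:**
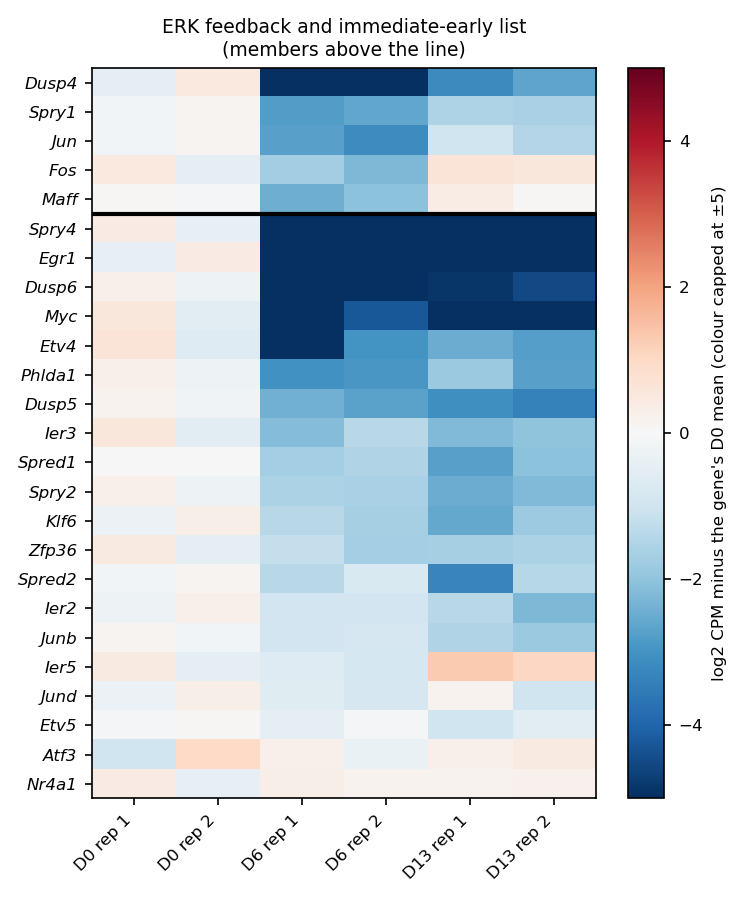
Log2 CPM of the 25 measured genes of the ERK feedback and immediate-early list in the 6 samples, as the difference from each gene's D0 mean, with the 5 members above the black line and the 20 other genes below it, ordered by their change from D0 to D6. The members turn lighter or red at D13, while Spry4, Egr1, Dusp6 and Myc stay dark blue.

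The stress genes Hspa1a and Hspa1b had a higher mean at D13 than at D0, with D13 replicates that lay far apart. Both encode the inducible chaperone HSP70, from a pair of nearly identical genes in the major histocompatibility region of chromosome 17, on the minus strand. On GRCm38.p6, Hspa1b spans chr17:34956429-34959238 and Hspa1a spans chr17:34969359-34972156, 10121 bases apart. In RefSeq, the 250 bases before their transcription start sites differ at 3 positions and are 98.8% identical. They are shown because these neighbouring members moved together, with capitals marking the letters GAANNTTC, a core of the heat shock element to which HSF1 binds, from 104 to 97 bases before the start. These letters occur on either strand in 4.75% of the 9291 promoters of this length matched to genes that could meet the rule.
Hspa1a, chr17:34972157-34972406, minus strand: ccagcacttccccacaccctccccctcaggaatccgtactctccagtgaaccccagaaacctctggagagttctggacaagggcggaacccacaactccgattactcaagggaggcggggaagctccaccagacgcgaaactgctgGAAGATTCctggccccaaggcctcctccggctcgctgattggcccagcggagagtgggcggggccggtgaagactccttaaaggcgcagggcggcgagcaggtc
Hspa1b, chr17:34959239-34959488, minus strand: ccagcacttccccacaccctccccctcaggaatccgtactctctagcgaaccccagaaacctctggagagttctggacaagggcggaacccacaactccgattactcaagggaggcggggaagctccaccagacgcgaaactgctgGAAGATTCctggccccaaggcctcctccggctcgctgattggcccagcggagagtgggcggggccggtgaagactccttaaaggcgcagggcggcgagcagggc

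Hspa1a had 1.63 and 1.50 log2 CPM at D0, -1.03 and -0.47 at D6, then 5.19 and 2.49 at D13. Hspa1b had 3.68 and 3.58 log2 CPM at D0, 1.66 and 2.01 at D6, then 5.53 and 3.15 at D13. In D13 replicate 1 both genes stood far above every other sample, with 2614 and 3295 reads, while in D13 replicate 2 Hspa1a was still above D0 and Hspa1b was below it. The change from D0 to D13 was 2.28 for Hspa1a (SE 0.74, limma adjusted p = 0.0369) and 0.71 for Hspa1b (SE 0.63, limma adjusted p = 0.394). Without D13 replicate 1, the library that also stood apart in ribosomal protein genes, these changes were 0.92 (limma adjusted p = 0.185) and -0.48 (limma adjusted p = 0.302). The call of Hspa1a was also lost without D0 replicate 1 (limma adjusted p = 0.112) or replicate 2 (limma adjusted p = 0.13), without a mean-variance trend (limma adjusted p = 0.054) and with precision weights from vooma (limma adjusted p = 0.0552). The longest transcripts of the pair in GENCODE share 63.8% of the 31-base words of Hspa1a and 67.6% of those of Hspa1b, so the division of reads between them is uncertain.

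The 18 other measured genes of the list of heat shock chaperones are those that did not meet the rule. From D0 to D6, 1 of them was called higher in limma, Hspb8, where 5.91% of all 12626 genes were. At an unadjusted p under 0.05 in limma, 3 were higher and 3 lower. From D6 to D13, 0 were called in either direction, as also with precision weights, where 0.388% of all genes were called higher and 0.697% lower. By adjusted p alone in limma, 0 were higher and 2 lower, and at an unadjusted p under 0.05 0 were higher and 4 lower. Dnajb1, a co-chaperone of HSP70, had 6.52 and 6.66 log2 CPM at D0, 6.85 and 6.91 at D6, then 5.72 and 5.66 at D13. Hspa8, the constitutive counterpart of the pair, had 11.74 and 10.84 at D0, 11.32 and 11.43 at D6, then 10.26 and 9.54 at D13. Both had their lowest values at D13 and not at D6.

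The GADD45 proteins are small stress-induced factors that act in growth arrest and DNA repair, and 2 of their genes were members with opposite end-points. Gadd45g had 2.33 and 2.07 log2 CPM at D0, 1.25 and 0.25 at D6, then 6.38 and 5.60 at D13. Its reads went from 397 and 365 at D0 through 187 and 101 at D6 to 5953 and 3637 at D13, so both D13 samples were far above all others. The change from D0 to D13 was 3.79 (SE 0.41, limma adjusted p = 0.000211) and stayed from 3.40 to 4.18 when a sample was left out. Gadd45a had 5.47 and 5.34 log2 CPM at D0, 3.13 and 3.08 at D6, then 4.82 and 4.32 at D13, with both D13 samples below D0. It was lower at D13 by -0.83 (SE 0.26, limma adjusted p = 0.0306), a call lost in 5 of the 6 fits that left out a sample. Pmaip1, which encodes the p53 target NOXA and was the only member among 27 measured genes of the p53 list, had 5.03 and 5.35 at D0, 3.59 and 3.36 at D6, then 4.94 and 5.46 at D13, where it overlapped D0. Of the 26 other genes of that list, 1 was called higher at D6 than at D0, Cdkn1a, against 5.91% of all 12626 genes.

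For Fos and Jun, the promoters are shown as those of the AP-1 partners among the members, again as the 250 bases before the start site in RefSeq on GRCm38.p6. Capitals mark the letters TATAAA in Fos, from 33 to 28 bases before the start, which 5.69% of the 9291 promoters hold on either strand. In Jun they mark TGACATCA, from 45 to 38 bases before the start, the letters of an AP-1 site known in this promoter and held by 1.18% of the 9291 promoters, and the letters GAANNTTC defined above, here from 128 to 121 bases before the start. These matches do not overlap each other.
Fos, chr12:85473640-85473889, plus strand: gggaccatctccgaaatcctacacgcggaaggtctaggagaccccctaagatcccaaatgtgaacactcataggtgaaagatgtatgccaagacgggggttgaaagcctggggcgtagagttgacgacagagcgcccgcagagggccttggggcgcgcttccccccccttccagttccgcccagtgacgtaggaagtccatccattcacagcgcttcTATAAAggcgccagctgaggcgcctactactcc
Jun, chr4:95052223-95052472, minus strand: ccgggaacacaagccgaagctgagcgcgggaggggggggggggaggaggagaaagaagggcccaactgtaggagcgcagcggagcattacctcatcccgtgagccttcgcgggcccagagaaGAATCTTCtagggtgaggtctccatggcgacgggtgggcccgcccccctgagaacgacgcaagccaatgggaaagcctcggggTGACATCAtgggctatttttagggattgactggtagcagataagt

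The other motifs searched on both strands were TGANTCA for AP-1, TGACGTCA for the cyclic AMP response element, CTTTGA for TCF/LEF, CACGTG for the E-box, and the CArG box, which 3.67%, 2.87%, 10.4%, 8.89% and 1.05% of the 9291 promoters held, and none of these matched in the 4 promoters shown. The search covered only the 250 bases before the start and fixed patterns of letters. Sites farther away or with other letters were not sought. A promoter was matched for 99 of the 142 members, or 69.7%. As this is under 80%, a comparison of base composition or motifs between the members and the other genes is void and none is given.

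The Notch ligand Dll1 and 2 basic helix-loop-helix factors had D13 samples above those in serum. Dll1, which activates Notch on neighbouring cells, had 2.80 and 2.78 log2 CPM at D0, -0.29 and -1.68 at D6, then 3.07 and 4.11 at D13. Neurog3, a factor that specifies endocrine cells in the pancreas, had 0.53 and 0.37 at D0, -1.23 and -1.30 at D6, then 0.58 and 0.98 at D13. With Bhlhe41, these are 3 of the 12 members with both D13 samples above both D0 samples, and they were grouped after their values were seen. None passed the test, and the change from D0 to D13 was 0.80 for Dll1 (SE 0.53, limma adjusted p = 0.249). The list of Notch and Hes/Hey genes held Dll1 and Bhlhe41 among 13 measured genes. Of the 11 others, 2 were called lower at D6 than at D0, Jag2 and Lfng, against 3.9% of all 12626 genes. The neural progenitor list, to which Dll1 also belongs, had 10 measured genes of 19. Their summed level was 307 and 232 CPM at D0, 213 and 261 at D6, then 243 and 240 at D13, and so overlapped between the days. Single genes of this list were called against D0, with Ncam1 higher at D6 and D13, Msi1 higher at D13 and Map2 lower at D13.

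Of Wnt pathway genes, Fzd7, Wnt9a, Lef1 and Dact3 were members, and all 4 had a D13 mean below D0, as had 113 of all 142 members. Fzd7, a Wnt receptor of undifferentiated ES cells, had 7.23 and 7.52 log2 CPM at D0, 4.54 and 4.71 at D6, then 5.97 and 5.93 at D13. It had 11862 and 16005 reads at D0 and was lower at D13 by -1.42 (SE 0.21, limma adjusted p = 0.00106). Lef1, a nuclear partner of beta-catenin and itself a Wnt target, had 4.93 and 3.47 at D0, 0.85 and 1.44 at D6, then 2.32 and 2.43 at D13. Its change of -1.82 (SE 0.48, limma adjusted p = 0.015) passed the test, but not without D0 replicate 1 (limma adjusted p = 0.0642), D13 replicate 1 (limma adjusted p = 0.0839) or D13 replicate 2 (limma adjusted p = 0.0551). Among the 12 other measured genes of the list of Wnt and beta-catenin targets, 2 were called higher at D6 than at D0, Cdx1 and Sp5. The share over all 12626 genes was 5.91%. Lef1 thus lay in the opposite direction to these 2 genes, but the 12 were mixed. At an unadjusted p under 0.05 in limma, 6 of them were higher and 3 lower at D6 than at D0. From D0 to D13, 3 were called higher, Cdx1, Sp5 and Tnfrsf19, and 2 lower, Ccnd2 and Bmp4. Over all 12626 genes, 7.45% were called higher and 6.01% lower in that step. Dact3, which inhibits Wnt signalling, had 3.06 and 3.95 at D0, 2.02 and 1.72 at D6, then 3.53 and 3.00 at D13, and Wnt9a 1.73 and 1.06, -0.64 and -1.43, and 0.58 and 1.01 on the same days.

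Genes of epithelial junctions and keratins were again grouped after the values were seen, and 4 of 7 were lower at D13 than at D0 by adjusted p, of which Crb3 lost the call in 5 of the 6 fits that left out a sample. By the same criterion 29.6% of all members and 23.4% of the 11709 genes were lower. As these 7 genes were picked by their values, nothing is read from their count. The 7 members, Cldn6, Cldn7, Marveld3, Crb3, Krt7, Krt18 and Prom2, regained a median of 51.6% of their fall, from 28.0% for Marveld3 to 123% for Krt7. Krt18, an intermediate filament protein of simple epithelia, had 6.21 and 5.56 log2 CPM at D0, 1.90 and 1.65 at D6, then 3.30 and 3.04 at D13. Its change from D0 to D13 was -2.71 (SE 0.31, limma adjusted p = 0.000258). Cldn6, a tight junction claudin of pluripotent and early epithelial cells, had 6.56 and 6.56 at D0, 3.53 and 3.05 at D6, then 4.47 and 4.38 at D13, a change of -2.13 (SE 0.25, limma adjusted p = 0.000283). Marveld3, another tight junction protein, had 3.31 and 3.32 at D0, -0.29 and -0.42 at D6, then 0.62 and 0.73 at D13, a change of -2.64 (SE 0.36, limma adjusted p = 0.000614). In all 3 genes the samples of each day lay apart from those of the other days.

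Cldn7 returned further, with 5.21 and 4.66 log2 CPM at D0, 3.01 and 3.08 at D6, then 4.88 and 4.23 at D13, where it overlapped D0. Krt7, a keratin of ducts and trophoblast, had 2.72 and 2.08 at D0, 0.81 and 0.42 at D6, then 2.94 and 2.69 at D13, with an overlap as well. Krt7 and Krt18 were on the trophoblast list, of which 9 of 15 genes were measured. Its summed level was 252 and 212 CPM at D0, 149 and 158 at D6, then 131 and 135 at D13, and so was not higher at D13 than at D6. Krt8, the usual partner of Krt18 in filaments, was no member and showed no return, with 6.50 and 5.91 log2 CPM at D0, 3.48 and 3.55 at D6, then 3.33 and 3.23 at D13. The part of a small number of differentiating cells in these values was not tested.

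The matrix and its proteases were represented by 12 members grouped after their values were seen. All had a D13 mean below D0, and 9 had both D13 samples below both D0 samples. Most members did likewise, as 113 of all 142 had a D13 mean below D0. Both D13 samples lay below both D0 samples for 56.3% of the members and 38% of the 11709 genes. Mmp2, which cleaves type IV collagen, had 4.99 and 4.98 log2 CPM at D0, 2.72 and 2.69 at D6, then 4.17 and 4.15 at D13. The replicates of Mmp2 nearly coincided on every day, and its change of -0.82 (SE 0.24, limma adjusted p = 0.023) was lost only without D6 replicate 1 (limma adjusted p = 0.0758) or D6 replicate 2 (limma adjusted p = 0.0762). Plau and Plat, the urokinase and tissue-type activators of plasminogen, were members together. Plau had 0.87 and 0.10 log2 CPM at D0, -1.32 and -1.68 at D6, then -0.31 and 0.32 at D13. Plat had 1.40 and 1.07 at D0, -0.73 and -0.31 at D6, then 0.73 and 1.30 at D13, so that the end-points overlapped in both genes. Serpinh1, the collagen chaperone HSP47, had 5.91 and 6.34 at D0, 4.71 and 4.65 at D6, then 5.89 and 5.55 at D13. None of the 26 measured genes of the list of collagens, laminins and matrix was a member.

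Anxa2 and Cyr61 came from the list of SRF, YAP and cytoskeletal genes, of which 20 of 28 were measured. Cyr61, a matricellular protein induced by YAP and listed as Ccn1 in RefSeq, had 5.73 and 5.33 log2 CPM at D0, 4.56 and 4.15 at D6, then 5.90 and 5.31 at D13, so that its end-points overlapped. Anxa2, a calcium-dependent membrane protein, had 5.45 and 4.80 at D0, 2.89 and 2.66 at D6, then 3.75 and 4.04 at D13. It was lower at D13 than at D0 by -1.22 (SE 0.30, limma adjusted p = 0.0112), a call lost without D0 replicate 1 (limma adjusted p = 0.0525) or D13 replicate 1 (limma adjusted p = 0.06). Of the 18 other genes of the list, 6 were called lower at D6 than at D0, namely Ctgf, Tagln, Cnn2, Tpm2, Anxa1 and Zyx. The share over all 12626 genes was 3.9%.

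Among genes of the germ line, Ddx4 and Dmrtb1 were members, against 20 measured genes of the list. Ddx4, the helicase VASA, had 5.37 and 4.19 log2 CPM at D0, 2.96 and 3.12 at D6, then 3.90 and 4.46 at D13. Dmrtb1, a factor of spermatogonia also known as DMRT6, had 1.44 and 1.05 at D0, -1.32 and -0.47 at D6, then 0.92 and 0.85 at D13. The D13 samples of Ddx4 overlapped those of D0, whereas those of Dmrtb1 lay just below. Of the 18 other genes, 6 were called higher at D6 than at D0, Dazl, Stk31, Hormad1, Rhox5, Asz1 and Smc1b, against 5.91% of all 12626 genes. The summed level of the list was 257 and 305 CPM at D0, 1025 and 1072 at D6, then 1742 and 1688 at D13. From D0 to D6 these 2 members thus ran against the summed level of the list. From D6 to D13 they rose with it, as the rule requires of members. Outside the list, the members also included Tdrkh, a piRNA pathway protein, Ybx2, a binding protein of germ-cell RNA, Prss50, Insl6 and Rhox9, and over these 7 genes, grouped after their values were seen, the median share regained was 85.4%.

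Chromatin regulators were few. Suv39h1, a methyltransferase for lysine 9 of histone H3, had 5.92 and 5.36 log2 CPM at D0, 4.41 and 4.23 at D6, then 5.35 and 5.47 at D13. Phf19, a Polycomb-like protein that recruits PRC2, had 3.19 and 3.92 at D0, 1.85 and 1.84 at D6, then 2.78 and 3.14 at D13. Both genes were at their lowest in the 2 D6 samples with little spread there, and neither change from D0 to D13 passed the test, with -0.23 for Suv39h1 (SE 0.25, limma adjusted p = 0.494) and -0.60 for Phf19 (SE 0.34, limma adjusted p = 0.189). None of the 14 measured genes of the list of DNA methylation machinery was a member.

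Immune genes contributed Irf8, Cxcl16, Bst2, Il23a, Il4ra, Ltbr, Cd6 and Ptger4. Irf8, a transcription factor of myeloid and B cells, had 1.83 and 1.44 log2 CPM at D0, -3.39 and -2.89 at D6, then -1.43 and 0.10 at D13. Its reads were 279 and 236 at D0, 7 and 11 at D6, then 26 and 80 at D13, so the rise rests on low counts. The change from D0 to D13 was -2.30 (SE 0.63, limma adjusted p = 0.0183), a call lost without D0 replicate 1 (limma adjusted p = 0.0799) or D13 replicate 1 (limma adjusted p = 0.101). Cxcl16, a membrane-bound chemokine, had 3.54 and 3.62 at D0, 0.21 and 0.14 at D6, then 1.22 and 1.36 at D13. Its replicates were close, and its change was -2.29 (SE 0.33, limma adjusted p = 0.000888). Bst2, the antiviral protein tetherin, was the only member among 17 measured genes of the list of nucleic acid sensing and the interferon response. It had 5.98 and 6.20 at D0, 4.65 and 4.25 at D6, then 6.15 and 5.55 at D13, where it overlapped D0. Of the 16 other genes of that list, 1 was called lower at D6 than at D0, Ifit2, and 1 higher, Oas1a. The shares over all 12626 genes were 3.9% lower and 5.91% higher.

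Syt11 and Sox3 came from lists of neurons and of the primed epiblast. Syt11, a synaptotagmin of vesicle traffic and the only member of the neuronal and synaptic list, had 5.88 and 4.74 log2 CPM at D0, 1.62 and 1.68 at D6, then 2.62 and 2.66 at D13. With a change of -2.67 (SE 0.38, limma adjusted p = 0.000842) it regained 27.1% of its fall. Sox3, a neural and epiblast factor, had 2.61 and 1.72 at D0, -1.57 and -0.33 at D6, then 1.89 and 0.85 at D13, with an overlap between D0 and D13. Lef1 and Sox3 were the members on the list of the formative and primed epiblast. Of its 15 other measured genes, 8 were called lower at D6 than at D0 and 1, Cdh2, lower at D13 than at D6. The shares over all 12626 genes were 3.9% and 0.697%. The call of Cdh2 was lost with precision weights from vooma and without a mean-variance trend. Pou3f1, which is among the 8, had 5.91 and 4.44 log2 CPM at D0, -1.57 and -0.72 at D6, then 0.53 and -0.69 at D13.

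Single members stood for 3 further lists. Pfkfb3, which raises glycolytic flux and is induced by hypoxia, had 4.47 and 4.29 log2 CPM at D0, 2.91 and 3.16 at D6, then 4.59 and 5.03 at D13. Both D13 samples of Pfkfb3 were above D0, with a change of 0.43 (SE 0.27, limma adjusted p = 0.226). It was the only member among 40 measured hypoxia genes, of whose 39 others 5 were called lower and 2 higher at D6 than at D0. The shares over all 12626 genes were 3.9% lower and 5.91% higher. Amn, a subunit of the cubilin receptor and a marker of visceral endoderm, had 0.58 and 0.30 at D0, -2.35 and -2.55 at D6, then 0.46 and -0.60 at D13, an overlap with D0. The list of primitive endoderm held 14 measured genes of 23, with a summed level from 984 to 1275 CPM over the 6 samples. Of its 13 other genes, 4 were called lower at D6 than at D0, namely Dab2, Lamb1, Col4a1 and Col4a2. The same 4 were called lower at D13 than at D0, and 0 were called higher on either day. Over all 12626 genes, 3.9% were called lower at D6 and 6.01% at D13. By adjusted p alone in limma, 1 of the 13 was higher and 4 lower at D6, and 3 were higher and 4 lower at D13. The median log2 change of the 13 genes from D0 was 0.16 at D6 and 0.69 at D13. Thy1, a surface protein of fibroblasts, neurons and T cells, had 2.70 and 1.77 at D0, -0.02 and 0.72 at D6, then 1.48 and 1.79 at D13, again with an overlap. The fibroblast list had 7 measured genes of 14, and its summed level was 645 and 1363 CPM at D0 and from 1498 to 1858 CPM in the 4 later samples. Of the 6 other genes, Vim was called higher at D6 than at D0 and Col1a2 lower at D13 than at D0. Over all 12626 genes, 5.91% and 6.01% were called so. From D0 to D6, the median log2 change of the 6 was -0.79. At an unadjusted p under 0.05 in limma, 1 was higher and 3 lower in this step. In total, 23 members belonged to at least 1 of the 36 lists, and 21 lists, among them naive pluripotency factors, ribosomal proteins, glycolysis, cholesterol synthesis and imprinted genes, held no member.

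By reads, and thus without regard to length, the most abundant members were Ptprs, Fzd7, Dusp9, Serpinh1, Bst2, Cyr61, Suv39h1, Acsl5, Cldn6 and Lpar2. Ptprs, a receptor tyrosine phosphatase, had 11107 and 14166 reads at D0, 4404 and 4122 at D6, then 6654 and 8539 at D13. Acsl5, which activates long-chain fatty acids, had 6.17 and 5.40 log2 CPM at D0, 3.54 and 3.79 at D6, then 4.91 and 5.17 at D13. Lpar2, a receptor for lysophosphatidic acid, had 5.03 and 4.81 at D0, 3.79 and 3.90 at D6, then 4.9998 and 5.24 at D13. The D13 samples lay below D0 for Ptprs and Acsl5 and overlapped D0 for Lpar2.

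Apart from Dusp4, Krt18, Marveld3, Cldn6, Syt11, Irf8 and Cxcl16, the members called lower at D13 by more than 4-fold were Gm5796, Tmem30b, Arl4c, Hapln4 and Gm2897. Tmem30b, a subunit of lipid flippases, had 4.20 and 4.82 log2 CPM at D0, 0.88 and 1.00 at D6, then 2.07 and 1.82 at D13. Arl4c, a small GTPase, had 4.51 and 5.66 at D0, 1.29 and 1.19 at D6, then 2.57 and 2.63 at D13. Gm5796 had 2.81 and 3.73 at D0, -0.14 and -0.33 at D6, then 0.58 and 0.58 at D13. In each of these 3 genes the D13 samples lay nearer to D6 than to D0. Gm5796, Gm2897 and the further member Gm10406 are predicted genes on chromosome 14 whose longest transcripts share from 47.4% to 64.0% of their 31-base words, so reads could have been split among them and they may not be separate observations.

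Members lay on all autosomes and the X chromosome, with 16 of 921 eligible genes on chromosome 7 (1.74%) and 16 of 639 on chromosome 8 (2.50%), and some lay within 100 kb of each other, among them Ybx2 and Cldn7, Aspg and Kif26a, Hspa1b and Hspa1a, Slc22a7 and Cul9, Guca1a and AI661453, and Plvap and Bst2. Plvap, an endothelial protein of fenestrae, had 2.62 and 2.68 at D0, -2.17 and -0.87 at D6, then 1.04 and 0.71 at D13, so it returned less far than its neighbour Bst2. Kif26a, an atypical kinesin, had 3.97 and 3.81 at D0, -0.67 and 0.28 at D6, then 1.57 and 2.72 at D13, and Aspg, an asparaginase, 2.26 and 1.93, -0.79 and -0.33, and 1.38 and 0.39. Both ended below D0. Slc22a7, an organic anion transporter, had 1.95 and 2.11 at D0, 0.50 and 0.64 at D6, then 2.17 and 2.26 at D13, above D0 in both samples. Cul9, a cullin, had 1.59 and 2.45, 0.15 and -0.08, and 1.02 and 1.08 on the same days, below D0 in both D13 samples.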

How the data were processed

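The 6 RNA-seq samples of WT J1 ES cells were grouped by day, with 2 replicates each at D0 (serum), D6 and D13 (both 2i+vitC). For genes, per their methods, the authors used TopHat2 2.0.6 with RefSeq on mm10, counted reads with HTSeq 0.6.1, normalized by TMM and deposited log2 CPM (counts scaled to library size) from voom. The precision weights are not used here. Transposon families, mapped with Bowtie 1.0.0, entered the fit only.

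Each deposited log2 value lay within 0.02 of a whole number of reads plus the voom offset of 0.5, which gave the depth (73230745 to 83688345 reads on genes). Replicates were taken as the biological replicates the study describes, and an SD rests on 2 values.

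The log2 values were fitted with limma 3.58.1 (R 4.3.3), a mean for each day and a mean-variance trend, on all 6 samples without a block, with Benjamini-Hochberg adjustment over 12928 rows. A gene was called at more than 4-fold with an adjusted p under 0.05. The fit was tested on simulated data. Python 3.11.15 with pandas 2.3.3, numpy 2.4.6 and matplotlib 3.10.9 made the tables and figures.

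The members, the 36 gene lists and the groups of genes were chosen with earlier results of these data known. Genes named are the 10 with the largest margin, the 10 with most reads, the 5 largest changes in each direction from D0 to D13 with an adjusted p under 0.05, members of a list, the nearest to the margin on either side, and pairs within 100 kb. Other genes were named after their values were seen. A member that this rule names is not reported here.

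In the deposited names, each capital G and the character after it are missing. A name was restored only where a single RefSeq symbol matched, which gave 12 members (Gadd45a, Gadd45g, Gas6, Gm10406, Gm2897, Gm5796, Gprc5b, Gramd4, Greb1l, Grik5, Gstt2 and Guca1a). In addition, 2 members matched by a synonym and 1 row, 996, matched nothing. Positions and promoters are from RefSeq on GRCm38.p6, the build the authors name mm10, and transcript words from GENCODE. Alternatives were other margins, each sample left out, the replicate number as a block, vooma weights, no trend, other adjustments, fold limits, centring and log2(CPM + 1).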

Additional observations from a re-analysis of the deposited data

Results flagged for a closer look

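Transposon families stand in the same tables but are no part of the comparisons of the member genes. None of the 302 families met the rule for a trough at D6, while 7 families met the mirrored rule, with both D6 values above the 4 others by the same margin of 0.7 on the log2 scale. Both D0 values had to be above 0 as well. The study instead tested pairs of days at more than 2-fold, and reported a significant rise from D0 to D6 for nearly all families. The 7 families rest on another criterion and do not measure how common that rise was. With 2 samples a day, no test for a single sample far from its group applies.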

How the results depend on the processing

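The 142 members became 220 with a margin of 0.5, 59 with a margin of 1 and 66 on log2(CPM + 1), and 79 genes met the mirrored rule. Leaving out a sample lets the rule rest on 5 values, which can only loosen it, so all 142 members stayed by construction. The number of genes was then from 174 to 228, with 226 without D6 replicate 1 and 228 without D13 replicate 2. Without a minimum at D0, with centring and with shared names, the count was 146, 162 and 143.

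Of members higher at D13 than at D0 by more than 4-fold, 2 became 1 without a trend, with vooma weights and on log2(CPM + 1), and leaving out a sample gave from 1 to 2. Members lower became 42 without a minimum fold change and 39 with a 2-fold minimum, 8 on log2(CPM + 1), and from 12 to 15 when a sample was left out. Of the 20 ERK list genes outside the members, 7 called lower at D6 became 13 without a minimum fold change and from 7 to 8 when a sample was left out. In these changes of fold limit, margin and scale the construction of the alternative sets the count. For the trend and the weights the cause was not tested.

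Replicates share the numbers 1 and 2 on each day, but no label says that a number marks a culture or batch. The correlation over genes of the difference between replicates 1 and 2 was -0.13 for D0 and D6, 0.33 for D6 and D13 and 0.14 for D0 and D13. With the number as a replicate block, 2 members were called higher, 12 lower and 7 ERK list genes lower, as without it, and the row 996 lost its adjusted p (0.0507). Hspa1b was the only one of 48 genes followed whose direction from D0 to D13 turned, to -0.48 without D13 replicate 1, and it was 1.90 without D13 replicate 2. The filter of 10 reads in 2 samples removed no row. The median gene moved by -0.01 in each comparison.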
